A study of Homo sapiens with 6 samples.

Results

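The BCL2 family and the caspases were followed in messenger RNA from T98G cells, a human glioblastoma line, after knockdown of the kinase DYRK1A. The 9 genes of the set were taken by symbol from the table of 23026 genes that the authors normalised: the pro-survival genes BCL2, BCL2L1 and MCL1, the BH3-only genes BCL2L11 and BID, the apoptosome genes APAF1 and CASP9, the initiator caspase CASP8, and the caspase inhibitor XIAP. All 9 were found there. The rule of choice used no measured value: DYRK1A is known to phosphorylate caspase 9, and the other genes act around it. The members were, however, chosen with earlier results of these data known. The cells received a lentivirus with a control short hairpin RNA (shControl) or with 1 hairpin against DYRK1A (shDYRK1A), were selected with puromycin and left to recover, and 3 libraries were made per condition, named 1A, 1B and 1C. As a spike-in, cells of the Drosophila line Kc167 were added in constant amount to equal cell counts of each condition, and the fly reads serve as an external scale. Since nothing in the labels ties the libraries to separate cultures, the p-values measure only the spread between these libraries.

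Apoptosis can start at the mitochondrion or at a death receptor. In the mitochondrial route, BH3-only proteins such as BIM (encoded by BCL2L11) and BID engage or bypass the pro-survival proteins BCL2, BCL-XL (the main product of BCL2L1) and MCL1, the effectors BAX and BAK permeabilise the outer membrane, and released cytochrome c assembles with APAF1 into the apoptosome, which activates caspase 9. In the receptor route, caspase 8 is activated and can cleave BID, which joins both routes, and XIAP restrains caspase 9 and other caspases. Phosphorylation of caspase 9 by DYRK1A is an event on the protein, which messenger RNA does not report.

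Human gene counts summed to between 33708297 and 42154438 per library, and the library with the lowest sum, shDYRK1A 1B, also had the highest share of unmapped reads (15.6%). Of the glial markers examined, VIM (1530 to 1975 CPM, counts scaled to the same total in each library) and CD44 (1401 to 1591 CPM) were abundant, NES and OLIG2 did not exceed 2.02 CPM, and GFAP, S100B and SOX2 had at most 4 raw counts in any library. No marker of neurons, immune, endothelial or epithelial cells exceeded 4.12 CPM. DYRK1A itself was lower in each shDYRK1A library, with a log2 fold change of -0.73 (standard error, SE, 0.15) after spike-in scaling and -0.34 after TMM scaling. Its mean CPM was 46.7 in shControl and 37.6 in shDYRK1A. Of all genes tested, 63.6% were lower in each shDYRK1A library after spike-in scaling and 29.3% in CPM. A spike-in log2 fold change below -0.7 with an adjusted p below 0.05 (edgeR) was met by 14.3%. TMM sets the bulk of the human genes equal between libraries, whereas the spike-in scale refers them to the fly cells. The choice matters for every gene below: the median log2 fold change of the 9697 genes tested was -0.40 on the spike-in scale and 0.00 under TMM, with negative values for 93.6% of the genes on the former. On the spike-in scale, fewer cells in the mix and less RNA per cell cannot be told apart.

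On the spike-in scale, 4 of the 8 members that passed the expression filter fell and none rose at an adjusted p below 0.05 (edgeR's quasi-likelihood test, adjusted over all 9697 genes). Those that fell were APAF1, MCL1, CASP8 and BID. Of all the genes tested 63.4% were lower and 1.08% higher by the same rule, a background that 4 of 8 does not exceed. Only APAF1 of the 8 also passed a log2 fold change of -0.7, a criterion met by 14.3% of the genes, and no member passed 0.7 in the other direction. The median of the 8 was -0.36, beside -0.40 for all genes. Under TMM scaling APAF1 and MCL1 were lower (background 28.6%), CASP9, BCL2L1 and BCL2L11 were higher (background 27.3%), and CASP8, BID and XIAP passed in neither direction; the median of the 8 was 0.04. The ninth member, BCL2, lay under the filter at a mean of 2.79 CPM, and is described from its counts and from a fit over the 17530 genes that edgeR's filterByExpr keeps. The order of the fold changes, from BCL2 at the bottom to CASP9 at the top, was the same on both scales. The scales differ by 1 constant per library, which shifts all genes nearly alike, so the same order is no separate support. Leaving out a library changed the counts: the 4 that fell became 2 without shControl 1A, shControl 1B or shDYRK1A 1C, the 1 past -0.7 became 0 without shControl 1A or shDYRK1A 1B, and the 2 lower under TMM became 0 without shControl 1A.

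**Figure D1:**
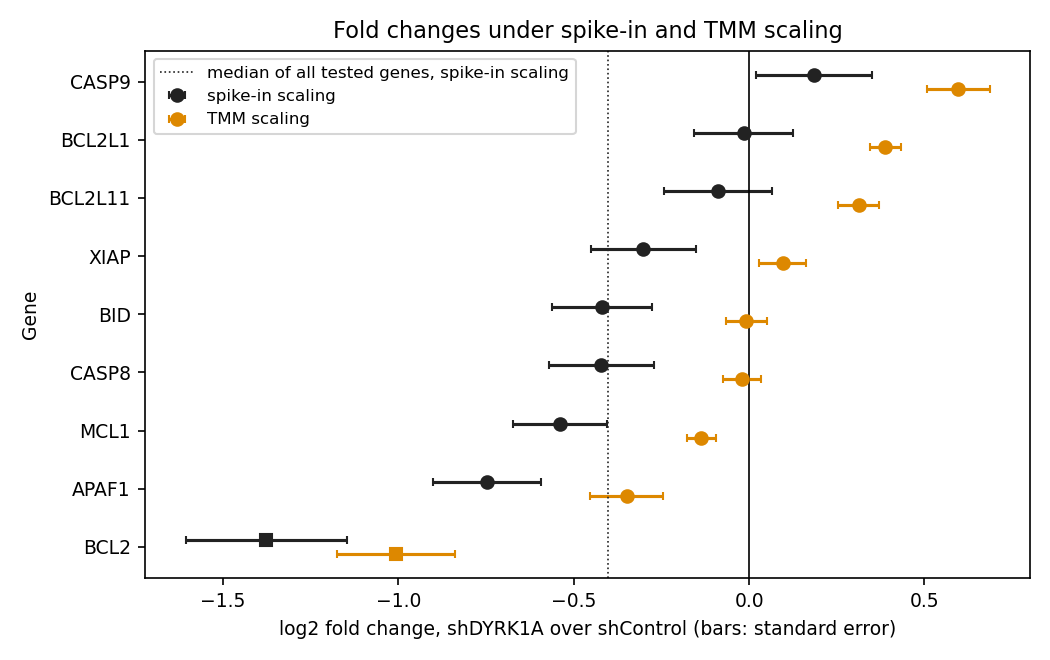
log2 fold change of each member, shDYRK1A over shControl, on the spike-in scale (black) and under TMM scaling (orange), with standard errors as bars; squares mark BCL2, fitted over the filterByExpr genes, and the dotted line is the median of all 9697 genes on the spike-in scale (-0.40). The spike-in values of CASP9, BCL2L1, BCL2L11 and XIAP lie to the right of that line, and the signs of BCL2L1, BCL2L11 and XIAP turn between the scales.

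The messages differed widely in level. The exon length used is that of all annotated exons of a gene joined, for example 5.27 kb for CASP9 and 7.91 kb for APAF1. The length of the transcripts expressed was not known, and places that lie close together depend on it. Per kilobase of exon, the normalised count in shControl was highest for MCL1 (1967 ± 212, SD, n = 3), followed by BCL2L1 (929 ± 97.0) and BID (713 ± 89.8). CASP8 stood at 221 ± 22.5. XIAP (163 ± 17.9), APAF1 (159 ± 20.5) and BCL2L11 (157 ± 14.4) came next, with library ranges that overlapped. Within libraries, XIAP was above APAF1 in 3 of 3, whereas APAF1 was above BCL2L11 in only 1 of 3. CASP9 was low at 87.0 ± 9.76, and BCL2 was the lowest at 13.5 ± 2.48. In shDYRK1A the first 4 places were unchanged. BCL2L11 (148 ± 15.3) then preceded XIAP (132 ± 24.3), and CASP9 (98.8 ± 5.25) stood beside APAF1 (94.8 ± 23.6). The library ranges of CASP8, BCL2L11 and XIAP overlapped, but within libraries CASP8 was above BCL2L11, and BCL2L11 above XIAP, in 3 of 3. CASP9 was above APAF1 in 1 of 3 libraries, shDYRK1A 1B, so the order of their means rests on that library. BCL2 remained last at 5.17 ± 1.44.

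**Figure D2:**
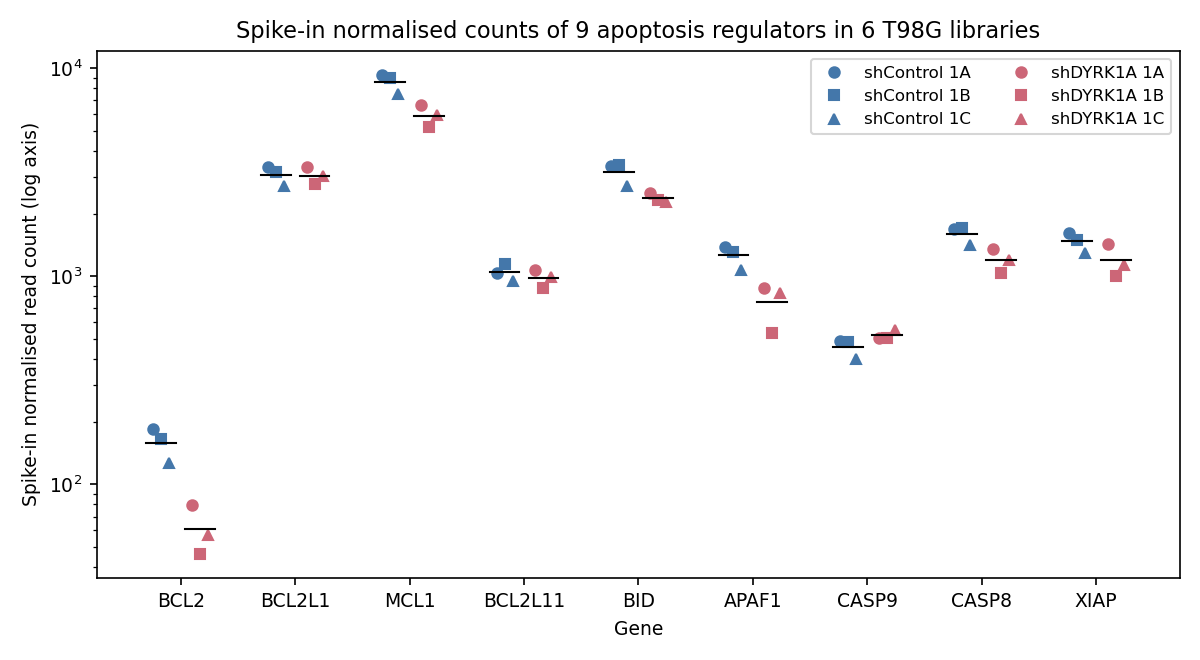
Spike-in normalised read count of each member in the 6 libraries on a log axis, shControl in blue and shDYRK1A in red, with a symbol for each replicate letter and a bar at the group mean. BCL2, MCL1, BID, APAF1 and CASP8 lie lower in each shDYRK1A library than in any shControl library, CASP9 lies higher, and the groups of BCL2L1, BCL2L11 and XIAP overlap. Of the 9697 genes tested, which leave out BCL2, 63.6% lay lower in this way and 1.59% higher.

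Among the pro-survival genes, BCL2 (ENSG00000171791, GRCh38 chromosome 18, 63123346 to 63320128, minus strand) had the lowest counts and the lowest fold change. Raw counts in replicates 1A, 1B and 1C were 151, 145 and 130 with shControl and 84, 50 and 69 with shDYRK1A, and this order of replicates is kept below. The groups did not overlap in raw counts, which are not scaled for library size and for which no share over all genes was computed. After normalisation they did not overlap either, and the mean went from 158 ± 29.1 to 60.9 ± 16.9 (SD, n = 3 each). Of the 9697 genes tested, which leave out BCL2, 63.6% separated downwards after normalisation. Over the filterByExpr genes the log2 fold change of BCL2 was -1.38 (SE 0.23, adjusted p 6.35e-08, edgeR), which passed the threshold of -0.7, as did 14.2% of the genes in that fit. Under TMM it was -1.01 (SE 0.17, adjusted p 0.000134), in a fit where 21.0% of the genes were lower. Leaving out each library in turn moved the spike-in value between -1.61 and -1.22 and the TMM value between -1.16 and -0.91, and the adjusted p stayed below 0.05 in all 12 of these fits. With 50 to 151 reads per library, the value rests on far fewer reads than that of any other member.

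MCL1, a pro-survival protein of short half-life (ENSG00000143384, chromosome 1, 150574551 to 150579738, minus strand), was the most abundant member. Its normalised counts were 9300, 8948 and 7546 with shControl and 6622, 5204 and 5930 with shDYRK1A. Each shDYRK1A library lay below each shControl library, as was so for 63.6% of the genes tested. The log2 fold change was -0.54 (SE 0.13, adjusted p 0.000245, edgeR) and stayed between -0.63 and -0.45 when a library was left out, each time with an adjusted p below 0.05. Under TMM scaling it was -0.14 (SE 0.04, adjusted p 0.0133), and without shControl 1A the TMM value of -0.12 no longer passed (adjusted p 0.0559).

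BCL2L1 (ENSG00000171552, chromosome 20, 31664452 to 31723989, minus strand) had normalised counts of 3350, 3160 and 2723 with shControl and 3347, 2762 and 3027 with shDYRK1A. The groups overlapped, and the log2 fold change was -0.02 (SE 0.14, adjusted p 0.927, edgeR). In CPM, by contrast, the libraries separated completely, at 69.7, 66.1 and 67.9 in shControl and 91.3, 88.4 and 90.9 in shDYRK1A. Such a separation upwards in CPM was seen for 33.5% of the genes, and under TMM the gene was higher by 0.39 (SE 0.04, adjusted p 2.51e-05). Only 7.07% of the 9697 genes had a higher log2 fold change. The gene-level count does not separate the long, pro-survival isoform from the short, pro-apoptotic one, so no statement on their balance can be made. An antisense gene, ABALON, overlaps 43.0% of the exon length and was itself listed with at most 4 counts per library; whether the counting used strand is not given in the sources used here.

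Of the BH3-only genes, BCL2L11 (ENSG00000153094, chromosome 2, 111119378 to 111168447, plus strand), whose product BIM binds all the pro-survival proteins, did not pass on the spike-in scale. Its libraries were at normalised counts of 1042, 1142 and 950.2 with shControl and 1077, 874.6 and 995.8 with shDYRK1A. The groups overlapped, with a log2 fold change of -0.09 (SE 0.15, adjusted p 0.607, edgeR). In CPM they separated, at 21.7, 23.9 and 23.7 against 29.4, 28.0 and 29.9, and TMM scaling gave 0.31 (SE 0.06, adjusted p 0.000901). Of the genes tested, 33.5% separated upwards in CPM and 27.3% were higher under TMM. All 6 TMM fits without a library kept an adjusted p below 0.05 for BCL2L11 and for BCL2L1. MIR4435-2HG, on the opposite strand, overlaps 10.9% of the exon length of BCL2L11 and had 2012 to 2518 counts per library, so reads of the overlap cannot be assigned if strand was not used.

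BID (ENSG00000015475, chromosome 22, 17734138 to 17774770, minus strand), the substrate through which caspase 8 reaches the mitochondrion, fell on the spike-in scale. Its normalised counts were 3393, 3407 and 2709 with shControl and 2503, 2335 and 2273 with shDYRK1A, without overlap. Such a separation downwards was seen for 63.6% of the genes tested. The log2 fold change was -0.42 (SE 0.14, adjusted p 0.00678, edgeR), close to the median of all genes, and under TMM it was -0.01 (adjusted p 0.919). In CPM the groups overlapped. The adjusted p rose above 0.05 without shControl 1A (-0.37, adjusted p 0.0725), shControl 1B (-0.36, adjusted p 0.0686) or shDYRK1A 1C (-0.39, adjusted p 0.0736).

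The apoptosome genes stood at opposite ends of the 8 members tested. APAF1 (ENSG00000120868, chromosome 12, 98645141 to 98735433, plus strand), the scaffold of the apoptosome, had normalised counts of 1388, 1312 and 1077 with shControl and 877.2, 535.5 and 835.2 with shDYRK1A. Each shDYRK1A library lay below each shControl library, as was so for 63.6% of the genes tested. Library shDYRK1A 1B stood well below the other shDYRK1A libraries. It also differed most from them over all genes tested. The chi-square per degree of freedom was 16.1 with shDYRK1A 1A and 19.9 with shDYRK1A 1C, against 4.76 between 1A and 1C. The log2 fold change of APAF1 was -0.75 (SE 0.15, adjusted p 9.06e-06, edgeR), lower than that of 89.0% of the genes tested. Without shDYRK1A 1B it was -0.56 and without shControl 1A -0.67, so that the threshold of -0.7 was not reached in either fit, although the adjusted p stayed below 0.05 in all 6 fits that left out a library. In CPM, APAF1 was also lower in each shDYRK1A library (23.9, 17.1 and 25.1, against 28.9, 27.4 and 26.8), as were 29.3% of the genes. TMM scaling gave -0.35 (SE 0.10, adjusted p 0.0135), which was -0.21 without shDYRK1A 1B and did not pass without shControl 1A (-0.32, adjusted p 0.0533).

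CASP9 (ENSG00000132906, chromosome 1, 15490832 to 15526534, minus strand), the initiator caspase of the apoptosome, had the highest fold change of the members. Raw counts were 403, 428 and 410 with shControl and 533, 546 and 671 with shDYRK1A. After normalisation to the spike-in these became 490.6, 485.7 and 399.2 against 503.8, 505.9 and 552.7. Each shDYRK1A library was above each shControl library, as was so for 1.59% of the genes, but the gap between the highest shControl and the lowest shDYRK1A library was small, and the log2 fold change of 0.19 (SE 0.17, adjusted p 0.310, edgeR) did not pass the test. It nevertheless exceeded that of 97.8% of the genes. In CPM the groups lay further apart, at 10.2, 10.2 and 9.95 against 13.7, 16.2 and 16.6. Of the genes tested, however, 33.5% separated upwards in CPM, and 27.3% were higher under TMM. TMM scaling gave CASP9 0.60 (SE 0.09, adjusted p 0.000175), between 0.55 and 0.69 when a library was left out, with an adjusted p below 0.05 in each of these 6 fits. Thus the share of CASP9 among human transcripts was higher in shDYRK1A, while its level relative to the fly cells was not shown to differ.

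CASP8 (ENSG00000064012, chromosome 2, 201233443 to 201287711, plus strand), the initiator caspase of the death receptors, had normalised counts of 1684, 1708 and 1415 with shControl and 1354, 1034 and 1200 with shDYRK1A. The groups were separate on this scale, and 63.6% of the genes tested separated in this direction. The log2 fold change was -0.42 (SE 0.15, adjusted p 0.0101, edgeR). It was -0.02 under TMM (adjusted p 0.768), and the CPM values overlapped, with means of 35.3 and 35.4. The call on the spike-in scale was lost without shControl 1A (-0.38, adjusted p 0.0782), shControl 1B (-0.37, adjusted p 0.0768), shDYRK1A 1B (-0.33, adjusted p 0.0661) or shDYRK1A 1C (-0.42, adjusted p 0.0653).

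XIAP (ENSG00000101966, chromosome X, 123859724 to 123913979, plus strand), which binds and blocks caspase 9, had normalised counts of 1613, 1499 and 1295 with shControl and 1433, 1003 and 1138 with shDYRK1A. The groups overlapped through shDYRK1A 1A. The log2 fold change of -0.30 (SE 0.15, adjusted p 0.0665, edgeR) did not pass, and it was 0.10 (adjusted p 0.250) under TMM. Without shControl 1C (-0.39, adjusted p 0.0114) or without shDYRK1A 1A (-0.45, adjusted p 0.0120) it passed on the spike-in scale. The processed pseudogenes, XIAPP1, XIAPP2 and XIAPP3, were listed with at most 5 counts per library.

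A ratio of 2 genes within a library does not depend on the scale, so the balance between partners was described in this way, as counts per kilobase of exon and without a test. APAF1 to CASP9 was 1.88, 1.80 and 1.80 with shControl and 1.16, 0.705 and 1.01 with shDYRK1A. The mean went from 1.83 ± 0.0498 to 0.957 ± 0.231 (SD, n = 3 each), the largest relative difference of the 7 ratios computed. APAF1 (-0.75) and CASP9 (0.19) had the lowest and highest spike-in log2 fold changes of the members that passed the filter. The place of their ratio among the 7 follows from those values and is no separate finding. CASP8 to CASP9 went from 2.54 ± 0.0425 to 1.67 ± 0.248, and XIAP to CASP9 from 1.87 ± 0.0618 to 1.34 ± 0.278, each without overlap of the groups. These 3 ratios share CASP9 and are not independent. Within the BCL2 family, MCL1 to BCL2L1 was 2.10, 2.15 and 2.10 in shControl and 1.50, 1.43 and 1.49 in shDYRK1A, without overlap. MCL1 to BCL2L11 went from 12.5 ± 0.913 to 9.17 ± 0.175, also without overlap. BCL2L1 to BCL2L11 was 5.93 ± 0.472 and 6.23 ± 0.119, and its groups overlapped. BCL2L1 to BID was higher in shDYRK1A, at 1.72 ± 0.117 against 1.31 ± 0.0546. All of these ratios combine counts already described gene by gene, so they add no independent evidence of a changed balance. How often the ratios of other gene pairs separate without overlap was not computed. Among single genes in CPM, 29.3% separated downwards and 33.5% upwards.

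**Figure D3:**
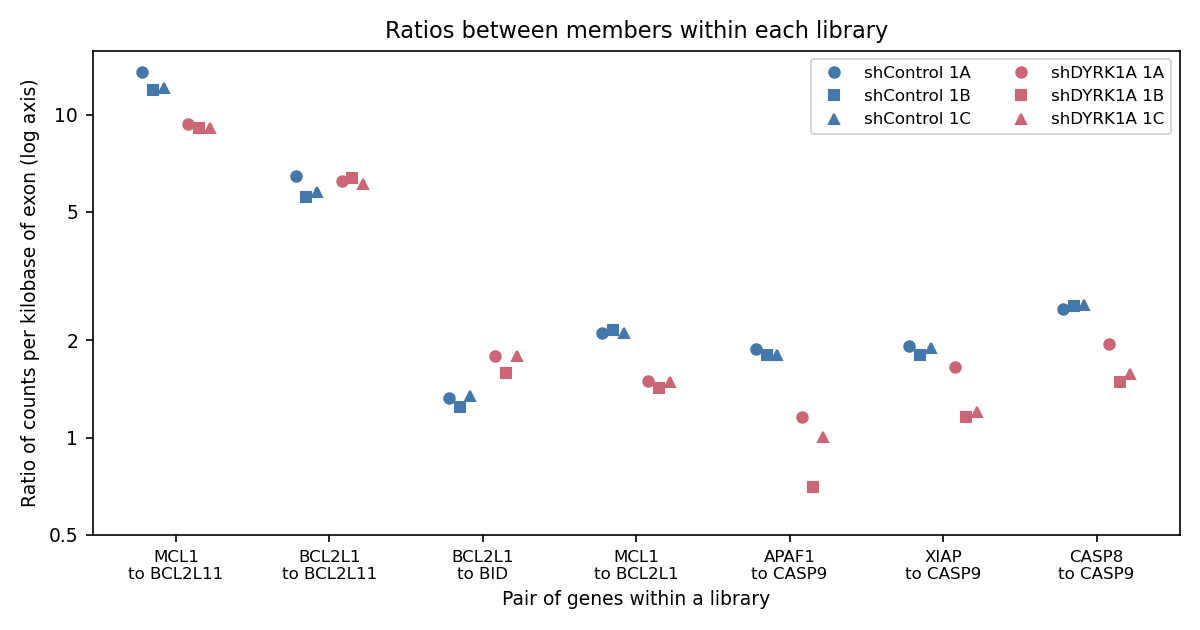
Ratio of counts per kilobase of exon between pairs of members within each library, on a log axis, with shControl in blue, shDYRK1A in red and a symbol for each replicate letter. The groups of BCL2L1 to BCL2L11 overlap, and APAF1 to CASP9 has shDYRK1A 1B lowest, at 0.705.

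The promoters of the genes at both ends of the order, CASP9 at the top and BCL2 and APAF1 at the bottom, are shown as the ends of that order. Sequences are from RefSeq (GRCh38.p14) and run from 250 bases before to 50 bases after an annotated start. Capitals mark GGGCGG, the GC box, and CCGGAAG, an ETS core, on either strand; adjoining or overlapping matches run together. The windows are chr1:15524166-15524465 on the minus strand for CASP9, chr12:98645040-98645339 on the plus strand for APAF1 and chr18:63319720-63320019 on the minus strand for BCL2.
CASP9: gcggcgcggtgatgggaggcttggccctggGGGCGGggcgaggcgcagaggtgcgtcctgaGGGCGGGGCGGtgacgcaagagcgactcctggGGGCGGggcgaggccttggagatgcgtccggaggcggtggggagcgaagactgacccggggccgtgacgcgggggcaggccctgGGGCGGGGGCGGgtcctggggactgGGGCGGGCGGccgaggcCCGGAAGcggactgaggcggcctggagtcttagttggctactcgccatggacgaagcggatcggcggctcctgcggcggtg
APAF1: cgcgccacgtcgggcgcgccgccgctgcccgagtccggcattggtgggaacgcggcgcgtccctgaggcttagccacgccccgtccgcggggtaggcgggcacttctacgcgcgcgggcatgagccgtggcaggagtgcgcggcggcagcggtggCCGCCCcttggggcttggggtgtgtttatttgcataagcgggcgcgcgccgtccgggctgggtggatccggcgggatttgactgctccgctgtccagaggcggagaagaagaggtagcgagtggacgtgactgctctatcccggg
BCL2: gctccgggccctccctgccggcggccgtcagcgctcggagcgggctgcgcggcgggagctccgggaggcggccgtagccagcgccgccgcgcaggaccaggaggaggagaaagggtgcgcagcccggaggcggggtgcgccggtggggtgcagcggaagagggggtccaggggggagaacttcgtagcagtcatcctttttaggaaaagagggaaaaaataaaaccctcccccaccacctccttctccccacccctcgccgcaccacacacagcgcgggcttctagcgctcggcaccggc
This CASP9 window holds 8 GC boxes and an ETS core that begins 31 bases before the start. A further CASP9 start, at chr1:15524741-15525040, has 9 GC boxes. Windows with at least 8 GC boxes made up 0.812% of the 35116 promoters in the table, and 45.0% held at least 1. The bound of 8 is the number in this CASP9 window itself, and the promoters were not matched for G and C content. The 0.812% is therefore a description and no test. The APAF1 window has 1 GC box and the BCL2 window none. The number did not follow the order of the fold changes throughout, since the windows of BCL2L1, second in that order, hold 0 and 1, and those of BID, near the median of all genes, hold 0 to 4. All 3 windows printed are rich in G and C (76.0%, 71.3% and 70.7% for CASP9, APAF1 and BCL2). The ETS core was found in 10.3% of all promoters and, among the 18 windows of 8 members, in this CASP9 window and in 1 window of BCL2L1. The palindrome core CTCGCGAG (1.02% of promoters) and the E2F words TTTCCCGC, TTTGGCGC, TTTCGCGC and TTTGCCGC (3.31% for the 4 words) were in none of the 18. A match is a run of letters and not a site of binding, and the GC box was added to the search after the sequences had been read. MCL1 had no entry.

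A wider list of apoptosis genes by role, in which the members are included, was examined in the same fit. Of 58 genes written, 51 were in the normalised table and 39 passed the filter. On the spike-in scale 20 of the 39 fell, 2 rose and 17 passed in neither direction, whereas under TMM 9 were lower, 14 higher and 16 neither. Over all genes the shares were 63.4% lower and 1.08% higher on the spike-in scale and 28.6% lower and 27.3% higher under TMM, and they are the background of each role described below. The median log2 fold change was -0.33, or 0.07 under TMM, close to the values for all genes (-0.40 and 0.00). The 4 genes past -0.7, a criterion met by 14.3% of all genes, were CASP2, PMAIP1, APAF1 and PARP1. The 7 genes outside the table, BCL2L10, HRK, CASP14, BIRC7, FASLG, TNFRSF10A and TNFRSF10D, had at most 3 raw counts in any library.

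The initiator caspases showed the widest range of any role. CASP2, a caspase linked to the response to DNA damage and to aberrant chromosome number, fell from 2387 ± 275 to 930.0 ± 84.7 normalised counts (SD, n = 3), a log2 fold change of -1.36 (SE 0.15, adjusted p 1.95e-17, edgeR) that was -0.95 under TMM, and CASP9 marked the other end. CASP6, an effector caspase, fell by 0.52 on the log2 scale (SE 0.16, adjusted p 0.00252, edgeR) and was at -0.12 under TMM, where it did not pass (adjusted p 0.231). Both execution substrates that passed the filter fell, PARP1 by 0.72 (-0.32 under TMM) and DFFA by 0.62 (-0.21 under TMM). CASP1, which processes interleukin-1β and is not an apoptotic caspase proper, rose by 0.59 (SE 0.14, adjusted p 9.83e-05; 1.002 under TMM), and its neighbour CASP4 was at 0.18 (adjusted p 0.219; 0.59 under TMM).

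Among the partners of the BCL2 family, the effectors BAK1 (-0.52, adjusted p 0.00140) and BAX (-0.48, adjusted p 0.00191) fell on the spike-in scale and were at -0.12 and -0.08 under TMM, where neither passed. BOK was at -0.10 (adjusted p 0.586) and 0.30 under TMM. PMAIP1, which encodes NOXA, a BH3-only protein that binds MCL1 in particular, fell from 909.8 ± 123 to 410.1 ± 67.5 normalised counts (log2 fold change -1.15, SE 0.16, adjusted p 5.56e-11; -0.75 under TMM). BAD, at the upper end of this role, was at 0.12 (adjusted p 0.445) and 0.53 under TMM. Beside APAF1, cytochrome c (CYCS) fell by 0.59 (adjusted p 5.45e-05; -0.18 under TMM), and the nuclease gene ENDOG was at 0.13 (adjusted p 0.476; 0.54 under TMM).

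Of the 6 inhibitor of apoptosis genes and regulators that were tested, XIAP among them, 4 fell, near the background of 63.4%, with BIRC2 lowest (-0.64, adjusted p 2.41e-05; -0.24 under TMM) and BIRC3 highest (-0.19, adjusted p 0.238; 0.22 under TMM). In the receptor route, TNFRSF10B, a receptor of the death ligand TRAIL, fell by 0.62 (adjusted p 3.30e-05; -0.21 under TMM), and TNFSF10, which encodes TRAIL, rose from 821.5 ± 63.3 to 1299 ± 75.1 normalised counts (0.66, SE 0.15, adjusted p 7.98e-05; 1.07 under TMM). The adaptor FADD, which brings caspase 8 to the receptors, fell by 0.48 (adjusted p 0.00252; -0.07 under TMM), and CFLAR, a catalytically inactive relative of caspase 8, was at -0.08 (adjusted p 0.644; 0.32 under TMM).

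**Figure D4:**
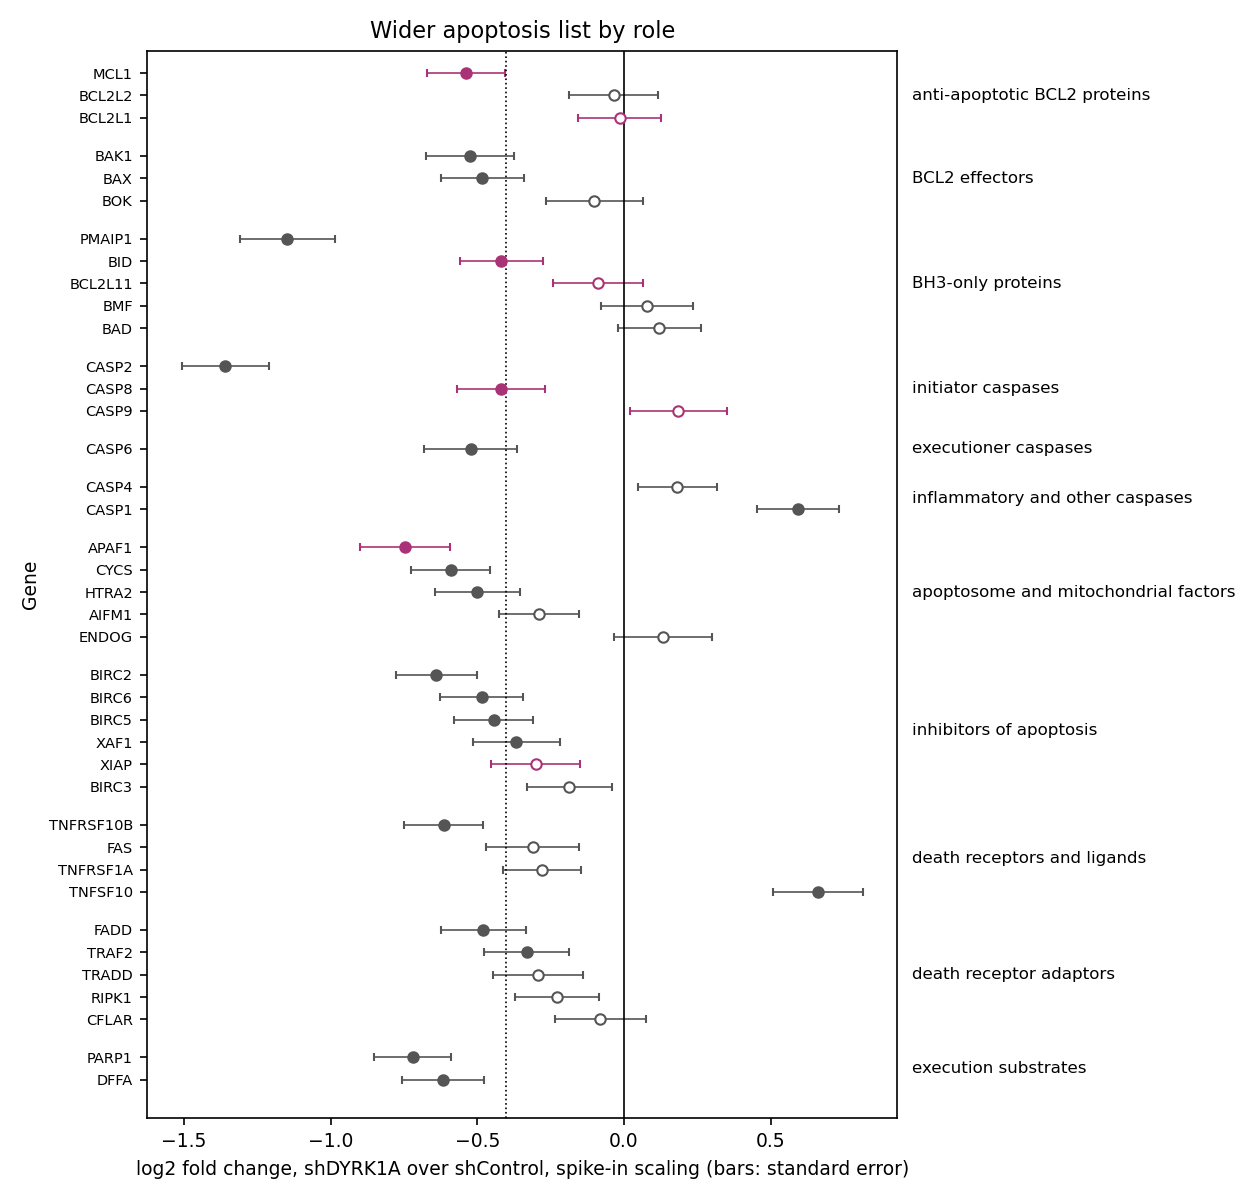
log2 fold change on the spike-in scale, with its standard error, of the 39 genes of the wider list that passed the filter, grouped by role; members are in purple, filled symbols have an adjusted p below 0.05 and the dotted line is the median of all genes (-0.40). Of these, 20 fell (63.4% of all genes did) and CASP1 and TNFSF10 rose (1.08% of all genes); under TMM 9 were lower (28.6% of all genes) and 14 higher (27.3%).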

How the data were processed

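Sequencing libraries of polyadenylated RNA from T98G cells and a fixed number of Drosophila cells were prepared with a stranded kit. Per the labels, reads were processed with STAR and DESeq2 on the builds hg38 and dm3. The authors deposited raw read counts for 58174 human gene identifiers per library and a table of normalised signal for 23026 genes, which equals the counts divided by 1 constant per library (0.821 to 1.21), derived from the fly reads per the study's methods. No fold changes or p-values computed by the authors were used. Summary lines (unmapped, multimapping, unassigned; 18.9 to 25.0% of reads) entered neither library sizes nor tests, and 0 per-sample columns matched no sample. Coordinates of the 9 members equalled those of GENCODE release 29, from which exon lengths were taken.

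Genes with a mean normalised CPM above 10 were kept (9697). Counts were tested in edgeR 4.0.16 (R 4.3.3; glmQLFit and glmQLFTest, robust) with the deposited constants as size factors, over all 6 libraries, with Benjamini-Hochberg adjustment across every gene tested. The second scale was TMM. A call needed an adjusted p below 0.05 and, where stated, a log2 fold change beyond 0.7 in size. The standard error was obtained as the fold change over the root of its F statistic. Every member is named, and each role of the wider list is given by its lowest and highest gene; BAX and CYCS were added after their values were seen. Further genes of the wider list are not reported here and were left out of its counts. The members and lists were chosen with earlier results of these data known. Alternatives were median-of-ratios scaling, DESeq2 1.42.0, filterByExpr, keeping any gene with 1 count, a block for the replicate letter and leaving out each library; the fits of BCL2 under them were added after seeing the data. The fitting step was tested on simulated counts.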

Additional observations from a re-analysis of the deposited data

How the results depend on the processing

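Both the scaling and single libraries moved the counts. Members lower on the spike-in scale numbered 4, but 2 under TMM and 2 under the median of ratios, and 2 to 5 when a library was left out. Past -0.7 there was 1 member, and 0 under TMM, 0 under the median of ratios, 2 with filterByExpr and 2 with no filter beyond 1 count (APAF1 and BCL2 in both), and 0 to 1 without a library. Under TMM 2 members were lower, and 0 to 2 without a library, the 0 without shControl 1A. Wider-list genes lower numbered 20, and 9 under TMM and 9 under the median of ratios. The sign turned for BCL2L1 (0.39 under TMM, 0.39 under the median of ratios, -0.0962 to 0.0505 without a library), BCL2L11 (0.31 and 0.32), XIAP (0.10 and 0.10) and, within TMM, CASP8 (-0.0434 to 0.00881) and BID (-0.0691 to 0.0234) without a library; none of these TMM values of CASP8 and BID passed the test. The cause was not tested, except that fewer or more genes enter under another filter. Same-lettered libraries correlated at 0.151 (1A), 0.0728 (1B) and 0.128 (1C) in their deviations. Different-lettered libraries were not set beside them, so these values cannot decide whether the letters mark pairs. The main fit did not take the letters as pairs. With the letter as a replicate block the counts of 4 members lower and 1 past -0.7 were as without it, and APAF1 was at -0.77. The reads of BCL2 (50 to 151 per library) and CASP9 (403 to 671) limit the precision of both.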

Other observations

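A group of caspases tied to inflammation or of other function lies side by side on chromosome 11 of GRCh38, on the minus strand: CASP12 (104885718 to 104898670), CASP4 (104942866 to 104969436), CASP5 (104994235 to 105023168) and CASP1 (105025443 to 105035250). CASP1, at 3052 ± 357 normalised counts in shControl and 4602 ± 400 in shDYRK1A (SD, n = 3), and CASP12, an annotated polymorphic pseudogene at 8.79 ± 0.279 and 22.9 ± 5.58, were higher in each shDYRK1A library. Such a separation upwards was seen for 1.59% of the genes past the filter, to which CASP12 does not belong. CASP12 had raw counts of only 7, 8 and 9 with shControl and 29, 18 and 30 with shDYRK1A. It passed the test in the fit over the filterByExpr genes (log2 fold change 1.37, SE 0.45, adjusted p 0.00788, edgeR) and was at 1.73 under TMM. So few reads limit this value, and the share of genes higher in that fit was not computed. CASP5 had a mean of 0.325 and 2.74, too few reads to compare. CASP4 was at 6020 ± 744 and 6827 ± 634, and its groups overlapped. CFLAR, CASP10 and CASP8 adjoin in the same way on chromosome 2, where CASP8 fell on the spike-in scale, CASP10 (131 ± 19.6 and 136 ± 25.1, under the filter) overlapped between the groups, and CFLAR (823 ± 72.1 and 778 ± 118) did so too. Another gene under the filter, BBC3, which encodes the BH3-only protein PUMA, had normalised counts of 221.6, 224.7 and 202.5 with shControl and 300.6, 289.1 and 251.2 with shDYRK1A. These separated upwards, as did 1.59% of the genes past the filter. The log2 fold change of BBC3 over the filterByExpr genes was 0.37 (adjusted p 0.0847, edgeR), which missed the threshold, and 0.75 under TMM (adjusted p 5.98e-05). These genes were singled out after their values were seen.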
